A study of Mus musculus with 10 samples.

Results

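RNA levels of the ubiquitin-conjugating enzymes (E2s) and of the ubiquitin-specific proteases (USPs) were described in the tibialis anterior, a fast-twitch leg muscle, of mice with and without Lewis Lung Carcinoma (LLC) tumors. Members were taken by name, as protein-coding genes whose mouse symbol starts with Ube2, or with Usp and a digit, leaving out Usp18, which removes the modifier ISG15 rather than ubiquitin. Of 39179 gene identifiers in the count files, 100 matched these names, 7 of them were pseudogenes or non-coding RNAs, and 92 genes remained, namely 37 in the Ube2 class and 55 in the Usp class. Of these names at least 2 mislead, since Ube2cbp encodes a ubiquitin ligase that binds Ube2c, and Usp6nl encodes a regulator of Rab GTPases and no protease. Both were kept, because the choice was by name.

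The LLC group was 6 mice with tumors grown from LLC cells, a mouse lung cancer line, injected under the skin of both flanks, and the Control group was 4 mice given PBS, the carrier of the cells, at the same sites. All mice were of a C57BL background with no engineered allele. The sample labels give strain C57BL/6J and 10 weeks of age at injection for all mice. They give day 23 for the LLC mice and day 0 for the Control mice. The series text instead gives C57BL/10 males of 8 weeks, with both groups studied after 22 days. These differences could not be settled here. The study's methods state that the 6 sequenced LLC mice lived to the end, so animals that died earlier are not represented. They also state that samples were picked at random, and the deaths reported leave more than 6 survivors. Each mouse gave 1 library of whole-number read counts. Totals ran from 16693209 to 21303084 counts, and the lowest was LLC 1, a library that stood apart from the others of its group. For that reason values with and without LLC 1 are given where a result rests on it.

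Ubiquitin is passed from an E1 enzyme to an E2 and then, with the help of a ubiquitin ligase, to the target protein. The E2 largely decides which kind of chain is built, and some members of the family carry other modifiers such as NEDD8 or ISG15. USPs are cysteine proteases that remove ubiquitin again, from histones, receptors, mitochondrial proteins or the chains that dock on the proteasome. In wasting muscle the system is best known for its ligases and proteasome subunits, and Ube2b, Usp14 and Usp19 have long been studied there.

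Tissue labels were checked first. The summed level of 8 fast skeletal muscle markers was 111965 to 118800 CPM (counts scaled to a common library total with TMM factors) in Control and 73735 to 121113 CPM in LLC, where the lowest sum was that of LLC 1. The same samples differed in other cells. The sum of 7 neutrophil markers was 1.06 to 2.17 CPM in Control and 33.4 to 72.9 CPM in LLC, with all 7 past the threshold given below and higher, and the sum of 4 fibroblast markers was 226 to 288 CPM in Control and 44.7 to 76.9 CPM in LLC, with all 4 past it and lower. The 5 erythroid markers summed to 58.8 to 83.4 CPM in Control and 88.7 to 144 CPM in LLC, with 3 of them past it and higher. Mitochondrially encoded genes took 28.4% to 30.7% of counts in Control and 22.0% to 27.9% in LLC. In whole muscle, fewer cells of a type cannot be told apart from less RNA per cell, and the part of these shifts in the values below was not tested.

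The question asked of each member was whether its RNA differed between LLC and Control muscle. No gene of either class was past the threshold, which was an edgeR adjusted p of 0.05 or less over 12690 tested genes together with a change of at least 1.5-fold. The counts were 0 of 32 tested Ube2 genes and 0 of 42 tested Usp genes, where 5.63% of all tested genes passed. Without the minimum fold the counts were again 0 and 0, against 6.99% of all tested genes. DESeq2 also called 0 and 0, and limma voom with sample quality weights called 1 Ube2 gene, Ube2cbp, and 0 Usp genes. At an unadjusted p of 0.05 or less, 6 Ube2 genes (18.8%) and 3 Usp genes (7.14%) passed, against 27.4% of all tested genes, and of these 9 only Ube2e2 was lower in LLC, where 12.7% of all tested genes had such a p with a higher level and 14.6% with a lower one. Together with the minimum of 1.5-fold, the unadjusted p was met by Ube2cbp alone, against 12.4% of all tested genes.

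Most intervals also lay close to no change. The 95% interval of the fold change lay within 1.5-fold in either direction for 26 of 32 Ube2 genes (81.2%) and 35 of 42 Usp genes (83.3%), against 49.4% of all tested genes. Members had more counts than most genes, with a median Control level of 26.7 CPM against 10.9 CPM for all tested genes, which narrows such intervals. Their median SD of log2 CPM in LLC was 0.20 against 0.28. Whether an interval lies within the limit also depends on its estimate, and the median absolute log2 fold change was 0.13 against 0.22. The median log2 fold change was 0.12 over the Ube2 genes, with 21 higher and 11 lower, and 0.05 over the Usp genes, with 28 higher and 14 lower, where the median of all tested genes was 0.00 and 50.3% of them were higher. With upper-quartile scaling the counts were 18 higher and 14 lower for Ube2 genes and 23 and 19 for Usp genes, and without Control 4 the Ube2 median was 0.051. Ube2 genes ran from -0.46 (Ube2e2) to 0.59 (Ube2cbp), and Usp genes from -0.28 (Usp54) to 0.53 (Usp3).

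**Figure D1:**
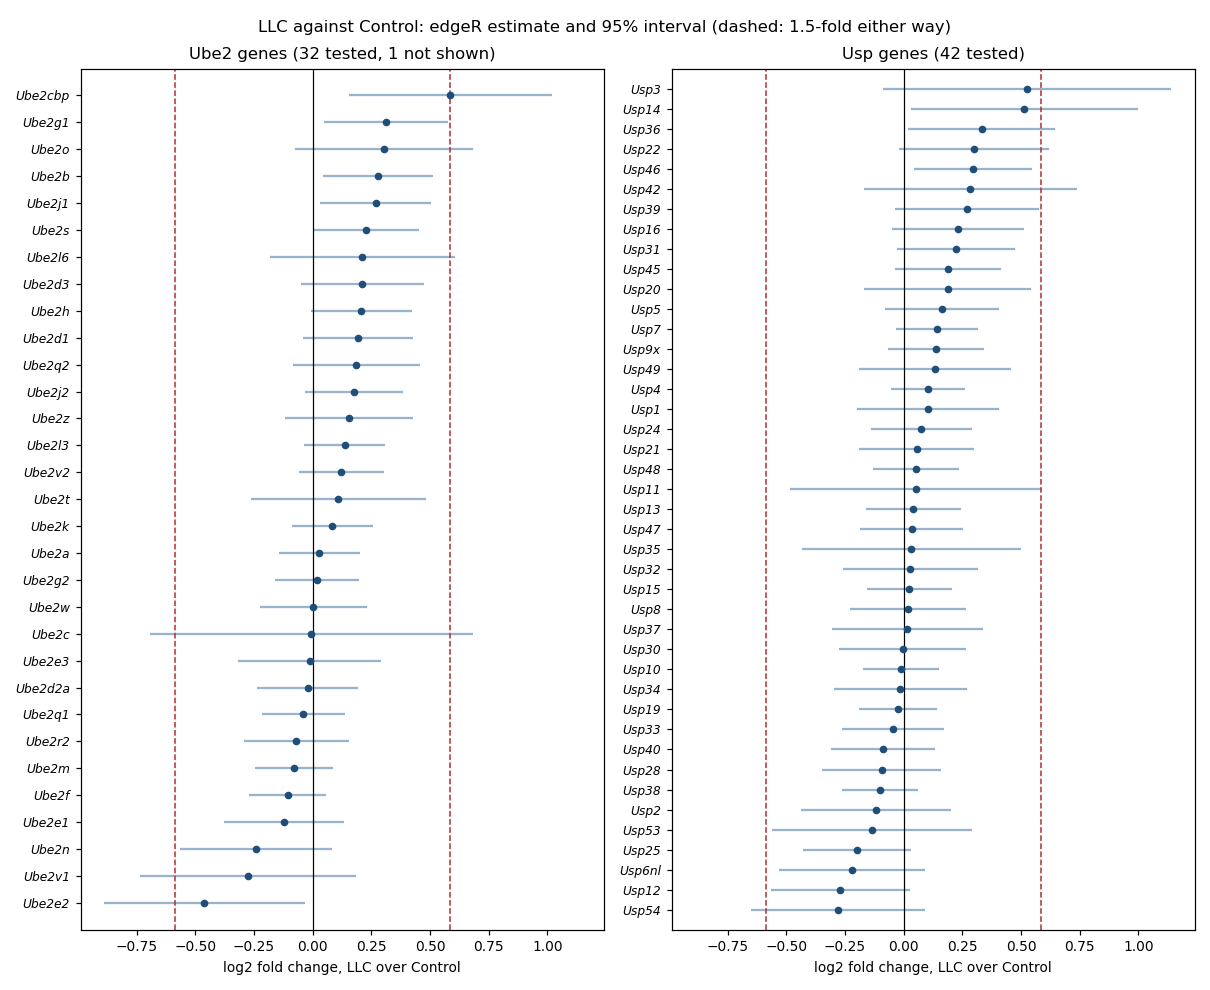
Log2 fold change of LLC over Control (x axis) for 32 tested Ube2 genes with 1 not shown (left) and 42 Usp genes (right), as the edgeR estimate (point) with its 95% interval (line), with dashed lines at 1.5-fold in either direction. Most intervals lie wholly between the dashed lines, and Ube2cbp, Ube2e2, Usp3 and Usp14 reach farthest outside them.

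Of the E2 class, Ube2b was the member with by far the highest level in this muscle. Per kb of exon its level was 163 ± 10.5 CPM in Control (SD, n = 4) and 198 ± 23.5 CPM in LLC (SD, n = 6). Next came Ube2r2, a partner of cullin ligases, at 37.7 ± 0.905 CPM per kb in Control (SD, n = 4), and Ube2m, which charges cullins with NEDD8, at 28.2 ± 0.387 (SD, n = 4). Ube2d1, a broadly used E2, followed at 26.5 ± 1.45 CPM per kb (SD, n = 4), and the Control ranges of Ube2m and Ube2d1 overlapped, so their order is not fixed. When levels were taken per kb of the longest coding transcript instead, Ube2b stayed first at 193 CPM per kb, and Ube2d1 and Ube2d3 followed at 80.9 and 55.0, because their other exons are long. Ube2d3 thus moved from rank 12 to rank 3 with the length used.

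Among the Usp genes the highest level per kb of exon belonged to Usp13, a relative of the free-chain protease Usp5, at 46.6 ± 3.61 CPM in Control (SD, n = 4) and 47.95 ± 3.72 CPM in LLC (SD, n = 6). Usp47 (25.4 ± 1.47 in Control, SD, n = 4), the circadian output gene Usp2 (24.9 ± 4.28), Usp19 (23.4 ± 0.493) and Usp25 (23.2 ± 1.01) formed the next group, and their Control ranges overlapped. By longest coding transcript Usp47 came before Usp13, at 60.1 and 46.7 CPM per kb. Usp13 and Usp47 were thus near the top on either length.

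**Figure D2:**
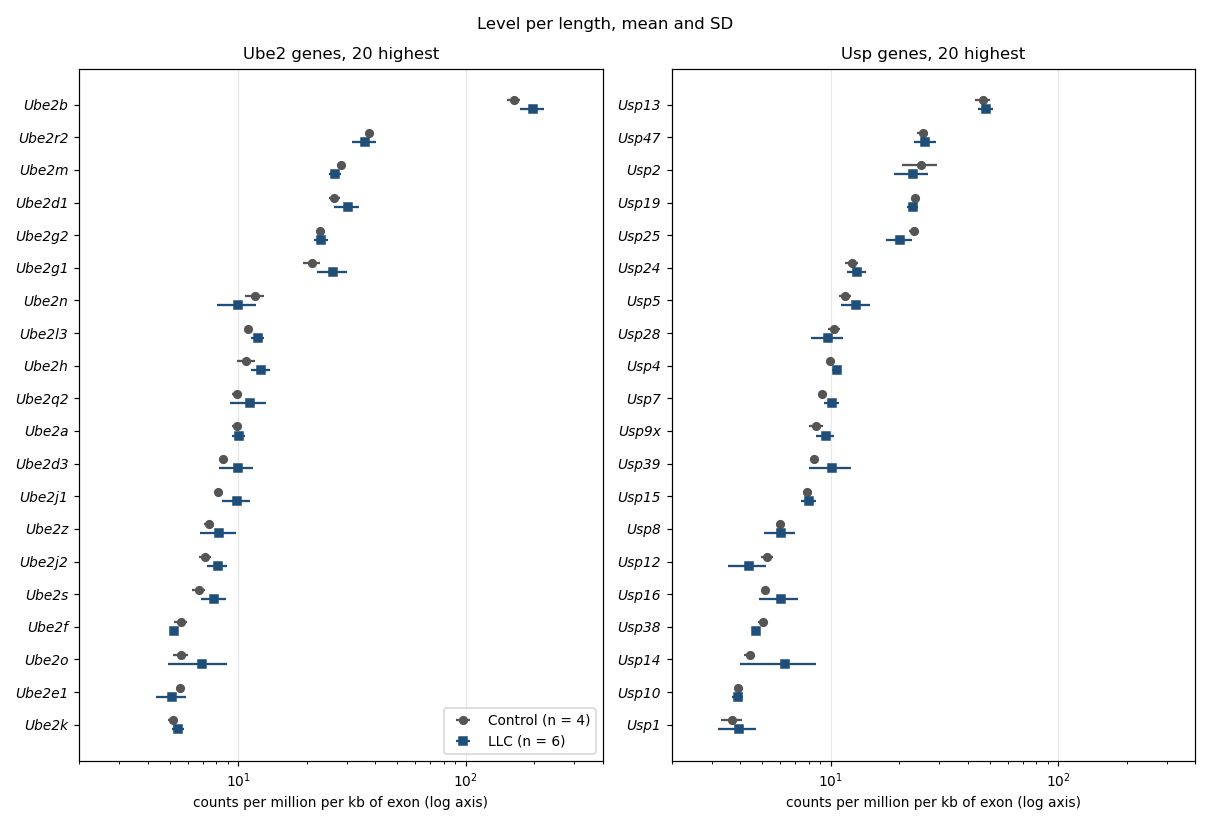
Level per kb of exon in CPM (x axis, log scale) of the 20 highest tested Ube2 genes (left) and Usp genes (right), as the mean with its SD in 4 Control samples (circles) and 6 LLC samples (squares). Ube2b stands apart at 163 and 198 CPM per kb, and Usp13 leads the Usp genes at 46.6 and 47.95.

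The Rad6 pair, which ubiquitinates histone H2B and the replication clamp PCNA, behaved unevenly. Ube2b had 354, 367, 349 and 315 CPM in Control 1 to 4 and 448, 368, 407, 369, 498 and 431 CPM in LLC 1 to 6. All 6 LLC samples were above all 4 Control samples, although LLC 2 exceeded the highest Control sample by very little. Its log2 fold change was 0.28 ± 0.11 (SE), with an edgeR adjusted p of 0.127, so Ube2b did not pass. Leaving out LLC 1 gave 0.27 with an adjusted p of 0.0834. Its paralog Ube2a had 21.4 to 23.6 CPM in Control and 21.4 to 25.4 CPM in LLC, with a log2 fold change of 0.03 ± 0.08 (SE). Ube2b was the only Ube2 gene of the 32 tested (3.12%) whose groups did not overlap, against 16.0% of all tested genes in either direction and 6.40% with LLC higher.

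E2s of chain elongation and of protein disposal from the endoplasmic reticulum were next. Ube2g1, which builds the chains that lead to the proteasome, had 98.6, 107, 88.8 and 91.3 CPM in Control and 143, 98.0, 105, 108, 134 and 129 CPM in LLC. LLC 1, 5 and 6 were the high samples, while LLC 2 and 3 lay within the Control range (log2 fold change 0.31 ± 0.12 (SE), edgeR adjusted p = 0.132). Ube2j1, anchored in the endoplasmic reticulum membrane, had 29.9, 27.7, 30.0 and 28.1 CPM in Control and 42.9, 36.0, 29.7, 30.8, 36.8 and 33.0 CPM in LLC (0.27 ± 0.11 (SE), edgeR adjusted p = 0.141), with only LLC 3 inside the Control range. Of the 6 E2s in this group 5 were higher on average, each with LLC 1 as the highest LLC sample, and 1, Ube2r2, was lower, though it stood at 0.0017 without LLC 1. All 6 had intervals within 1.5-fold. Ube2r2 had 153 to 161 CPM in Control, and in LLC it had 117 CPM in LLC 1 and 150 to 171 CPM in the other five.

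The Ube2d and Ube2e group works with many ligases. Ube2d1 had 123, 119, 109 and 112 CPM in Control and 103, 124, 148, 143, 137 and 140 CPM in LLC, so LLC 1 was below every Control sample and the others were above them all. With all samples the log2 fold change was 0.19 ± 0.11 (SE, edgeR adjusted p = 0.253), and without LLC 1 it was 0.26 with an adjusted p of 0.0272, which is below 0.05 but under the minimum of 1.5-fold. Ube2d3 had 202 to 221 CPM in Control, 326 CPM in LLC 1 and 217 to 242 CPM in the other LLC samples. The 2 paralogs thus stood on opposite sides of Control in LLC 1. Ube2e2 had the lowest log2 fold change of the Ube2 genes. It had 3.23, 2.07, 2.43 and 2.90 CPM in Control and 1.49, 2.20, 1.91, 2.62, 1.88 and 1.45 CPM in LLC. The groups overlapped through LLC 2 and LLC 4, and the log2 fold change was -0.46 ± 0.20 (SE, edgeR adjusted p = 0.157).

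Ube2n, which builds signaling chains with Ube2v1 or Ube2v2, had 47.3, 55.7, 51.9 and 45.1 CPM in Control and 27.9, 41.6, 51.3, 48.4, 40.1 and 44.4 CPM in LLC. LLC 1 was the lowest sample, and without it the log2 fold change went from -0.24 to -0.14. Ube2v1 had 0.919 to 1.43 CPM in Control and 0.671 to 1.23 CPM in LLC and shared 69.1% of its exonic bases with other annotated genes, so its count is uncertain, whereas Ube2v2 had 24.8 to 28.6 CPM in Control and 27.4 to 31.98 CPM in LLC.

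E2s of other modifiers overlapped between the groups. Ube2m, of the NEDD8 pathway, had 65.5 to 67.7 CPM in Control and 58.2 to 69.1 CPM in LLC (log2 fold change -0.08 ± 0.08 (SE)). Ube2f, the other NEDD8 E2, had 44.6 to 52.2 and 44.6 to 47.8 CPM. Ube2l6, which is induced by interferon and carries ISG15, was low, with 1.81 to 3.30 CPM in Control and 2.31 to 3.28 CPM in LLC (0.21 ± 0.18 (SE)). That value ran from 0.098 without Control 4 to 0.40 without Control 3.

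Ube2o combines E2 and ligase activity in a single protein. It had 31.7, 27.7, 27.8 and 31.3 CPM in Control and 57.9, 31.0, 31.9, 32.4, 34.4 and 32.1 CPM in LLC. LLC 1 was 1.95-fold above the Control mean, while the mean of the other five was 1.09-fold above it. Over all samples the log2 fold change was 0.30 ± 0.17 (SE, edgeR adjusted p = 0.266).

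The mitotic E2s need a caution. Ube2c had 3.19 to 5.98 CPM in Control and 1.70 to 5.91 CPM in LLC, while 6 markers of dividing cells together reached at most 1.86 CPM in any sample. Exons of Ube2c lie antisense to Tnnc2, the fast troponin C gene, which shares 74.0% of its exonic bases with Ube2c and was itself counted at only 3.29 to 6.26 CPM in this fast muscle. How strand was handled in these counts could not be checked, so the Ube2c value is uncertain. Ube2s, which also serves the anaphase-promoting complex, had 32.1 to 37.6 CPM in Control and 36.3 to 50.2 CPM in LLC, with LLC 5 highest.

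The member with the lowest adjusted p was Ube2cbp, the ligase that only shares the name. It had 1.38, 1.83, 1.57 and 2.19 CPM in Control and 1.90, 2.37, 2.90, 2.27, 3.47 and 2.80 CPM in LLC. Only LLC 1 lay within the Control range, and the log2 fold change was 0.59 ± 0.20 (SE, edgeR adjusted p = 0.0947). Without LLC 1 it passed the threshold, with a log2 fold change of 0.67 and an adjusted p of 0.0306. Leaving Ube2cbp out moved the median of the Ube2 genes only from 0.12 to 0.11.

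Among the USPs, those of the proteasome and of free chains came first. Usp14, which trims ubiquitin from proteins docked on the proteasome, had 35.6, 37.1, 39.6 and 35.1 CPM in Control and 89.3, 41.2, 36.9, 40.7, 57.5 and 50.4 CPM in LLC. LLC 1 was 2.42-fold above the Control mean and the other five averaged 1.23-fold above it, with LLC 3 inside the Control range. The log2 fold change was 0.51 ± 0.22 (SE, edgeR adjusted p = 0.163), and 0.31 without LLC 1. Usp14 shares 26.0% of its exonic bases with Thoc1 on the other strand. Usp5 had 50.3 to 57.6 CPM in Control, 74.9 CPM in LLC 1 and 51.8 to 65.1 CPM in the other LLC samples (log2 fold change 0.16 ± 0.11 (SE), and 0.097 without LLC 1). Usp13 had 329 to 378 and 323 to 396 CPM (0.04 ± 0.09 (SE)), with wholly mixed groups.

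The 4 USPs grouped here for links to muscle (Usp19, Usp25, Usp28 and Usp2) were all slightly lower on average, and none of the 4 passed. Usp19 and Usp2 changed sign when a sample was left out. The shared direction depends on the grouping, since Usp14, also long studied in wasting muscle, was placed above and was higher (log2 fold change 0.51). Usp19, which has an isoform in the endoplasmic reticulum and whose loss spares muscle in mice, had 166, 163, 161 and 169 CPM in Control and 147, 162, 170, 169, 157 and 168 CPM in LLC. Usp19 had a log2 fold change of -0.02 ± 0.08 (SE), which turned to 0.01 without LLC 1. Usp25, which has a muscle isoform, had 119, 126, 114 and 124 CPM in Control and 91.0, 118, 109, 116, 85.9 and 109 CPM in LLC, with LLC 1 and 5 lowest (-0.20 ± 0.11 (SE), edgeR adjusted p = 0.234). Its paralog Usp28 had 57.4 to 64.9 CPM in Control, 75.0 CPM in LLC 1 and 51.3 to 55.1 CPM in the other five. The other five thus lay below every Control sample while LLC 1 lay above every one, and without LLC 1 the log2 fold change of Usp28 went from -0.09 to -0.18 with an adjusted p of 0.0790. Usp2 had 105 to 150 CPM in Control and 90.8 to 131 CPM in LLC.

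Which USPs were grouped as nuclear was a choice made with earlier results of these data known, and the counts below depend on it. Usp21, Usp28 and Usp12, with log2 fold changes of 0.05, -0.09 and -0.27, were among those placed in other groups. The genes so grouped act on histones, the nucleolus and splicing. In this group 8 of 8 tested genes were higher on average, with a median log2 fold change of 0.25. LLC 1 was the highest LLC sample in all 8, and without it 7 were higher and 1 lower, with a median of 0.14. None passed, and 1 of 8 (Usp36) had an unadjusted p of 0.05 or less. Usp3, which removes ubiquitin from histone H2A, had 8.84, 7.46, 8.54 and 10.1 CPM in Control and 24.1, 10.4, 8.46, 8.06, 13.5 and 10.9 CPM in LLC. LLC 1 was 2.76-fold above the Control mean, the farthest any member went in any LLC sample. The log2 fold change of Usp3 was 0.53 ± 0.28 (SE), and 0.24 without LLC 1. Usp36, a nucleolar protease, had 18.3 to 23.7 CPM in Control and 36.6, 22.7, 22.6, 23.9, 28.1 and 25.5 CPM in LLC (0.33 ± 0.14 (SE), edgeR adjusted p = 0.164). Usp22, of the SAGA complex, had 14.4 to 16.4 CPM in Control and 24.2, 12.9, 17.1, 18.7, 18.9 and 20.7 CPM in LLC (0.30 ± 0.15 (SE), edgeR adjusted p = 0.205).

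Usp16 and Usp7 were the 2 Usp genes of the 42 tested (4.76%) whose groups did not overlap, both higher in LLC, beside the 6.40% of all tested genes in that direction. Usp16, another histone H2A protease, had 49.1, 49.3, 47.3 and 49.0 CPM in Control and 78.9, 51.9, 50.5, 49.5, 57.1 and 54.6 CPM in LLC. LLC 2, 3 and 4 lay close above Control. The log2 fold change was 0.23 ± 0.13 (SE, edgeR adjusted p = 0.258), and 0.12 without LLC 1. Usp7, which stabilizes Mdm2, had 68.6, 72.2, 71.1 and 73.2 CPM in Control and 90.2, 76.9, 77.7, 74.0, 74.1 and 78.9 CPM in LLC. The lowest LLC sample was close above the highest Control sample (0.14 ± 0.08 (SE), edgeR adjusted p = 0.265). Usp16 and Usp7, together with Usp3 and Usp39, were named after their values were seen.

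The last USPs named are Usp46 and Usp12, both switched on by Wdr48, and a mitochondrial one. Usp46 had 8.95, 7.80, 8.11 and 10.6 CPM in Control and 9.46, 10.96, 10.5, 10.5, 12.5 and 11.3 CPM in LLC (log2 fold change 0.30 ± 0.12 (SE), edgeR adjusted p = 0.132). Usp12 had 22.9, 26.0, 23.5 and 25.4 CPM in Control and 15.8, 24.5, 22.2, 24.04, 16.6 and 18.4 CPM in LLC (-0.27 ± 0.14 (SE), edgeR adjusted p = 0.213). The low samples of Usp12 were LLC 1, 5 and 6. Usp30, which opposes mitochondrial clearance at the outer membrane, had 8.33 to 10.3 CPM in Control and 8.05 to 11.8 CPM in LLC (0.00 ± 0.12 (SE)).

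**Figure D3:**
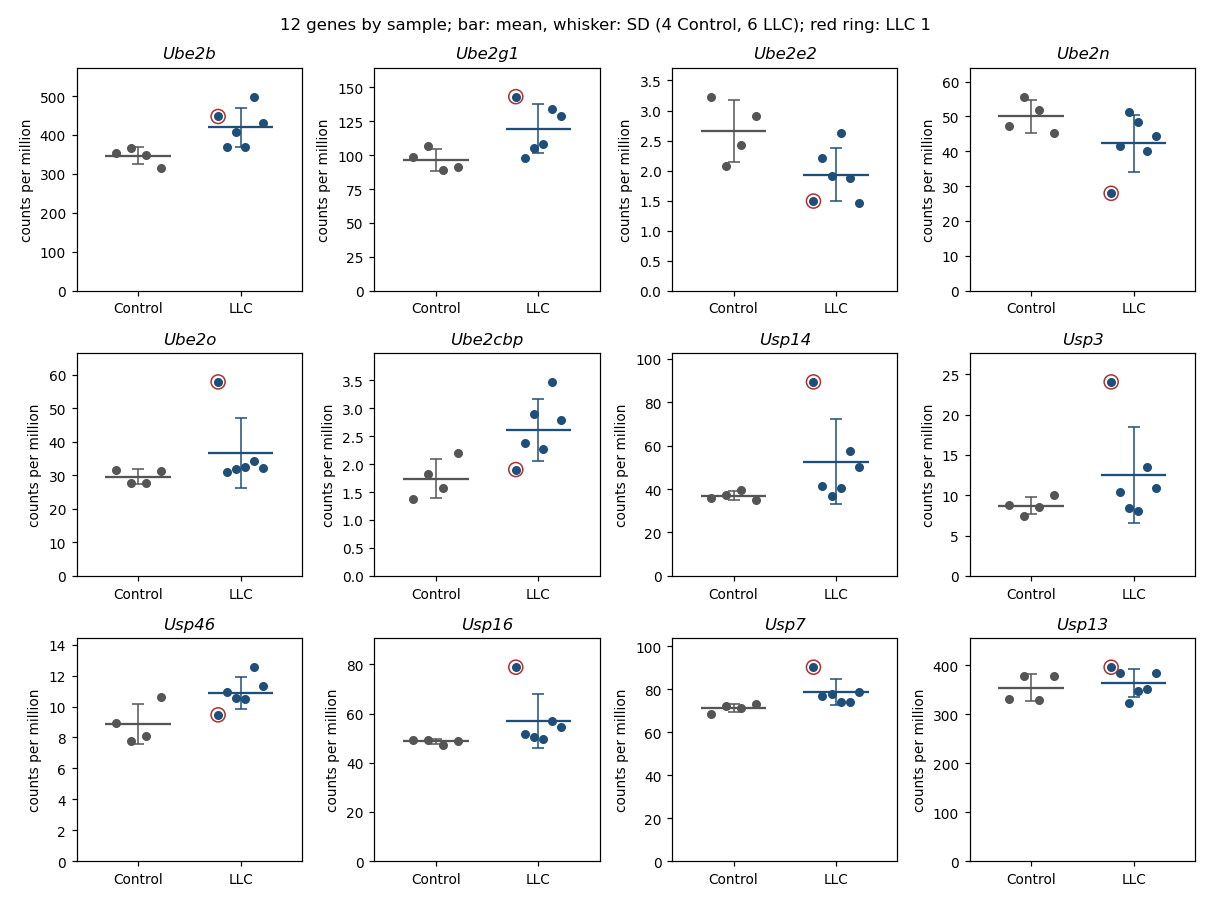
CPM (y axis, from 0) of 12 members in each of 4 Control and 6 LLC samples, with points for samples, a bar for the mean, a whisker for the SD and a red ring around LLC 1. In Ube2o, Usp14, Usp3 and Usp16 the ringed sample lies far above the rest, in Ube2n it lies below them, and in Ube2b all LLC points lie above the Control points.

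The promoters of the 3 members without overlap between groups are shown, because these are the members in which every LLC sample lay on the same side of Control. RefSeq promoter sequences (250 bases before to 50 after a start, on GRCm38.p6) were found for 30 Ube2 and 43 Usp genes. Letters for the E-box (CACGTG), FoxO (GTAAACA), AP-1 (TGACTCA) and STAT (TTCNNNGAA) factors were searched on both strands, and matches are in capitals, all of them E-boxes here. The sequences are from chr11:52000737-52001036 on the minus strand (Ube2b), chr16:87454735-87455034 on the plus strand (Usp16) and chr16:8738293-8738592 on the minus strand (Usp7).
Ube2b: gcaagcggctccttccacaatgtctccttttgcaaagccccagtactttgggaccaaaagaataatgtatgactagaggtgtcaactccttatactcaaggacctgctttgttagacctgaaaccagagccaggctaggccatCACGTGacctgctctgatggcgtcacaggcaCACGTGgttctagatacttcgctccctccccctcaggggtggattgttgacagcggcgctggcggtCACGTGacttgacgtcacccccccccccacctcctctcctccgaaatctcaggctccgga
Usp16: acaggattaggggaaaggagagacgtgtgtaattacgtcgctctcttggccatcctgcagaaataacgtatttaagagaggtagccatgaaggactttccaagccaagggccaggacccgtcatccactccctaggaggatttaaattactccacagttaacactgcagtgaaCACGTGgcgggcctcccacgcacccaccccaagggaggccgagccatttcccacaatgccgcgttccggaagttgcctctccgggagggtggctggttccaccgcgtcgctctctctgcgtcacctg
Usp7: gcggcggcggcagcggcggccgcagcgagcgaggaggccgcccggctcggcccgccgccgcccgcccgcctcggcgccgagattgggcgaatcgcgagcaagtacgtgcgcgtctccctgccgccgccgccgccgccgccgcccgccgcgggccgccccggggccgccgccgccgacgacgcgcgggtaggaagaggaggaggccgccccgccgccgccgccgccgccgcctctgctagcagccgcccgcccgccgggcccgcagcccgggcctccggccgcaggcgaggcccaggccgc
Ube2b has 2 promoters in this table, and the one printed, which is nearer the annotated gene start, held 3 E-boxes while the other (chr11:52000442-52000741) held 0. The Usp16 promoter held 1 and the Usp7 promoter, which is 86.0% G and C, held none. The start used for Usp7 lies 53966 bases from the annotated gene start, against 24 for Ube2b and 282 for Usp16. The Usp7 sequence is thus not that of the annotated start, which was not searched. An E-box was present in 7.15% of all 32851 promoters, in 3 of 41 Ube2 promoters (7.32%) and in 5 of 44 Usp promoters (11.4%). The FoxO letters were in 3.65% of all promoters, in 1 Ube2 promoter (Ube2h) and in no Usp promoter. AP-1 letters were in 5.20% of all promoters, in no Ube2 promoter and in 4 Usp promoters, and STAT letters in 8.30%, in 4 and in 6. All 6 Usp promoters with STAT letters belong to genes with too few counts to test (Usp17la, Usp17lc, Usp17ld, Usp26, Usp27x and Usp50). With AP-1 letters, Usp26 and Usp50 were such genes, while Usp10 and Usp38 were tested. With STAT letters, Ube2dnl2 was such a gene, while Ube2cbp, Ube2d3 and Ube2z were tested. The E-box was added to the search after the Ube2b promoter had been read. A match is a description of these letters and no site of binding.

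LLC mice differed among themselves more than Control mice. The larger SD, in log2 CPM, belonged to the LLC group in 28 of 32 Ube2 genes (87.5%) and 39 of 42 Usp genes (92.9%), beside the 85.1% of all tested genes. LLC 1 was the highest LLC sample for 13 Ube2 genes (40.6%) and 23 Usp genes (54.8%), against 32.8% of all tested genes, and the lowest for 11 and 8, against 33.2%. In LLC 1, 5 Ube2 genes were at least 1.5-fold above the Control mean (among them Ube2o, Ube2d3, Ube2q2 and Ube2z) and 4 were as far below it (Ube2c, Ube2e2, Ube2e3 and Ube2n). In the same sample 8 Usp genes were that far above (Usp3, Usp14, Usp42, Usp36, Usp20, Usp39, Usp16 and Usp22) and 1 was that far below (Usp12), where 20.3% of all tested genes were above and 25.7% below. In LLC 2, 3, 4 and 6 at most 1 Ube2 gene and 1 Usp gene were above and at most 2 Ube2 genes and 1 Usp gene below, where 3.14% to 6.09% of all tested genes were above and 7.10% to 12.3% below. LLC 5 had 1 Ube2 gene and 2 Usp genes above and 1 Usp gene, Usp53, below, where 11.2% of all tested genes were above and 18.1% below. Each of these is 1 animal, so they carry no test.

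**Figure D4:**
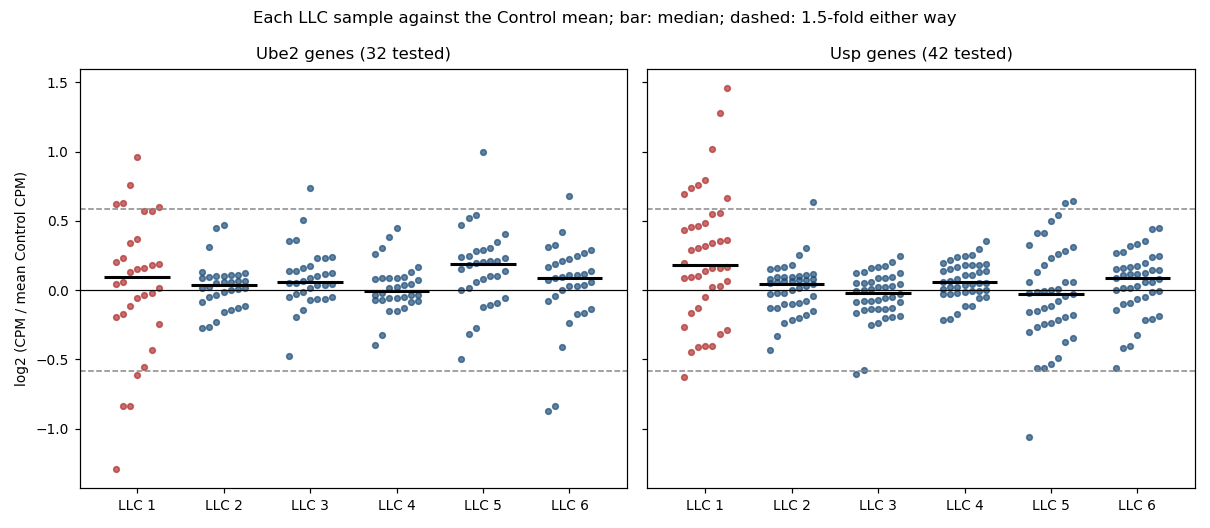
Log2 ratio of CPM to the Control mean (y axis) for every tested Ube2 gene (left) and Usp gene (right) in each of 6 LLC samples (x axis), with LLC 1 in red, a bar at the median and dashed lines at 1.5-fold in either direction. LLC 1 has the widest scatter in both. On a slightly different measure from the ratio drawn, log2 CPM (prior count of 2) less its Control mean, medians were close to 0. They lay between 0.01 and 0.19 for Ube2 genes and between -0.02 and 0.18 for Usp genes.

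Of the 92 members, 18 had too few counts to test. No counts at all were found for Ube2d2b, Ube2dnl1, Ube2dnl2, Usp17lb, Usp17ld, Usp17le and Usp9y in any of 10 samples, which allows levels of up to 3 counts a library, or 0.141 to 0.180 CPM. The other 11 had at most 16 counts in any sample. These were Ube2ql1, Ube2u, Usp17la, Usp17lc, Usp26, Usp27x, Usp29, Usp43, Usp44, Usp50 and Usp51.

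Other genes of the pathway came from lists of E1 enzymes, E2s with other names, deubiquitinases of other families and ubiquitin genes. The deubiquitinase list also held the Senp genes and Cops5, whose products remove SUMO or NEDD8 rather than ubiquitin. Together the lists gave 1 of 62 tested past the threshold. This was Zranb1, a deubiquitinase of the OTU family, with 102 to 116 CPM in Control and 132 to 281 CPM in LLC (log2 fold change 0.79 ± 0.21 (SE), edgeR adjusted p = 0.0452). Zranb1 did not pass with any single Control sample left out, nor without LLC 5 or LLC 6. Atg10, an autophagy E2, had 8.71 to 10.1 CPM in Control and 4.47 to 7.24 CPM in LLC (-0.58 ± 0.13 (SE), edgeR adjusted p = 0.0206), just under the minimum fold. Atg3, another autophagy E2, had 17.9 to 21.1 CPM in Control and 17.8 to 23.9 CPM in LLC (0.15 ± 0.10 (SE), edgeR adjusted p = 0.353). Uba1, the main E1, had 138 to 147 and 139 to 155 CPM (0.03 ± 0.07 (SE)).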

How the data were processed

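Total RNA of the tibialis anterior of 4 Control and 6 LLC mice was sequenced as stranded libraries in a single lane. Per the labels and the study's methods, the authors mapped reads to mm10 with TopHat2 and counted RefSeq genes with HTSeq at default settings. The deposited values are raw counts per gene, 1 library a mouse. They are listed by Ensembl and not RefSeq identifier, so the stated annotation and defaults could not be checked for these files, and genes with overlapping exons have uncertain counts (25 of the 74 tested members share exonic bases). Of 39179 identifiers, 37607 were matched to symbols and to GENCODE M21 on the same build.

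Genes were kept by filterByExpr (minimum count 10), scaled by TMM and tested with edgeR 4.0.16 (R 4.3.3, quasi-likelihood, group only), with Benjamini-Hochberg adjustment over all 12690 tested genes. DESeq2 1.42.0 and limma 3.58.1 voom were alternatives, beside other scalings, filters and thresholds and each sample left out in turn. Log2 CPM used a prior count of 2. Intervals are 95% from the test's F statistic. Levels between genes are CPM per kb of exon. The fit was checked on simulated counts.

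Genes were named by rule: those past the threshold, in each class the 5 smallest p and the 3 highest Control levels per length, and 17 fixed members. Usp3, Usp7, Usp16 and Usp39, and genes given only by their range, were added after their values were seen. Members, lists and rules were chosen with earlier results of these data known. Libraries of one group are separate mice. Counts of 0 and depth limits cover counting error only, since reads carry no molecular identifiers. Total counts of 16693209 to 21303084 set the counting error only, and the intervals also hold the variation between mice. Small RNA libraries were not used here, and the values of 2 genes are not reported here.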

Additional observations from a re-analysis of the deposited data

Results flagged for a closer look

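In 6 named members a single LLC sample lay far from the other five, by the gap to its nearest neighbour over the range of the group in CPM. The sample was LLC 1, highest, in all 6. The ratio was 0.875 for Ube2o, 0.742 for Usp16, 0.841 for Usp28, 0.661 for Usp3, 0.665 for Usp30 and 0.698 for Usp7, against a 95% critical value of 0.625 for 6 samples. Of 62 groups tested, about 3.1 would be found so by chance at 1 in 20, and the groups share samples. The 62 include Control groups, and every group found was of LLC, so fewer than 3.1 would be expected among LLC groups alone. Usp16, Usp3 and Usp7 were chosen after their values were seen, and without the genes so chosen 3 were found in 54 groups, where 2.7 would be. Those 54 include Control groups too, so fewer than 2.7 would be expected among their LLC groups alone. LLC 1 also had the fewest counts, the lowest mitochondrial share (22.0%) and the lowest sum of fast muscle markers (73735 CPM), and their part in these values was not tested.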

How the results depend on the processing

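The count of Usp genes past the threshold was 0 under every alternative run. The count of Ube2 genes was 1, Ube2cbp, with voom, with an unadjusted p, and without LLC replicate 1, and 0 under the others, so leaving out single samples gave 0 to 1. The median log2 fold change with single samples left out ran from 0.051 (without Control replicate 4) to 0.16 for Ube2 genes and from 0.04 to 0.07 for Usp genes, and upper-quartile scaling gave 0.08 and 0.0081. The count of other pathway genes, 1 with all samples, was 2 with upper-quartile scaling, without mitochondrial genes, with no filter, with DESeq2 and with no minimum fold, 5 with an unadjusted p, 0 with the replicate block, and 0 to 4 with single samples left out. Over all genes the calls went from 715 to 1052 with DESeq2, to 475 with at least 10 counts in every sample, and to between 415 (without Control replicate 3) and 966 (without LLC replicate 1) with single samples left out, where leaving out any Control sample gave at most 438, LLC replicate 5 gave 492 and LLC replicate 6 gave 477.

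The replicate numbers come from the labels, belong to different mice, and did not pair the samples (correlations of same-numbered deviations -0.029, 0.0093, -0.081 and 0.13). With the replicate number as a block, calls over all genes went from 715 to 112, and the block changed no call of a Ube2 or Usp gene.

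Direction turned only for genes with a log2 fold change near 0 and for Usp2, whose value with all samples was -0.12. With median-of-ratios scaling, no filter and DESeq2, Ube2c was 0.0031, 0.0017 and 0.0046 and Usp30 was 0.0064, 0.0071 and 0.0066, and with the block Usp30 was 0.0066. Upper-quartile scaling gave -0.0012 for Usp47. Voom gave 0.13 for Ube2c and 0.012 for Usp19. Single samples left out gave -0.13 to 0.22 for Ube2c, -0.082 to 0.052 for Usp30, -0.014 to 0.078 for Usp47, -0.037 to 0.011 for Usp19, -0.18 to 0.0075 for Usp2 and -0.11 to 0.0017 for Ube2r2. The causes were not tested. The medians without Ube2cbp or Usp6nl (0.11 and 0.05), the role groups without LLC 1, the length by longest coding transcript and the motif search were chosen after seeing the data.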
